A study of Mus musculus with 52 samples.

Results

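Cdkn2a and Trp53 are often lost or mutated when mouse fibroblasts escape senescence, and Cdkn2b lies beside Cdkn2a. H3K4 methylation over these 3 genes was examined in immortalized mouse embryonic fibroblasts (MEFs). The 3 genes were taken by their symbols, with all 4 of their transcripts among the 28748 transcripts of the deposited tables, and with every peak over or within 10 kb of them. After 1 transcript had been kept per gene, they were 3 of 23043 genes. The cells carried loxP sites in both alleles of MLL2 (Kmt2d), an H3K4 methyltransferase, and had been immortalized by the 3T3 protocol, in which fibroblasts are passaged until growing variants take over. F/F cells were untreated, and FC/FC cells were F/F cells given hydroxy-tamoxifen for 24 h, which excises part of MLL2, and grown on for several days. Excision and treatment therefore cannot be told apart in any comparison, and both groups share the same immortalization. H3K4me1, H3K4me2, and H3K4me3 were each measured by ChIP-seq in 3 libraries of F/F and 3 of FC/FC cells, 18 libraries in all. The study's methods describe the 3 libraries of a group as independent experiments, while the labels do not say what was separate between them, so p-values measure the spread between these libraries.

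Cdkn2a encodes 2 unrelated tumor suppressors from overlapping reading frames. The p16-Ink4a protein, made from the shorter transcript (NM_001040654), inhibits the cyclin D kinases Cdk4 and Cdk6 and so keeps the retinoblastoma protein active. The p19-Arf protein, made from a promoter further upstream (NM_009877), binds Mdm2 and so protects p53 from degradation. Cdkn2b encodes p15-Ink4b, another inhibitor of the cyclin D kinases, and Trp53 encodes p53 itself. Primary MEFs build up Arf and Ink4a in culture and stop dividing, and lines that grow out by the 3T3 protocol have usually lost either the Arf locus or functional p53. H3K4me3 marks active and poised promoters, H3K4me1 marks enhancers and the flanks of promoters, and H3K4me2 is found at both. The question put to the data was whether reads were missing over any of these loci, as in a deletion, and whether their methylation differed between F/F and FC/FC cells.

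All coordinates are of mm10. The genes of chromosome 4 both lie on the minus strand. The Ink4a transcript runs from 89274473 to 89282192 and the Arf transcript from 89274473 to 89294619, so that they share exons 2 and 3 and differ in exon 1. Cdkn2b lies 11.7 kb beyond the Arf start, from 89306289 to 89311032. Trp53 lies on the plus strand of chromosome 11, from 69580359 to 69591873. The start of Ink4a is 12.4 kb downstream from that of Arf, and the start of Cdkn2b is 16.4 kb upstream from it.

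The 250 bases before each start are printed because the promoters differed in the methylation found over them. They are the RefSeq sequences of GRCm38.p6, the assembly of mm10, written 5′ to 3′ on the strand of the gene, with each CpG dinucleotide in capitals. The windows are chr4:89294620-89294869 for Arf, chr4:89282193-89282442 for Ink4a, chr4:89311033-89311282 for Cdkn2b, and chr11:69580109-69580358 for Trp53.
Arf: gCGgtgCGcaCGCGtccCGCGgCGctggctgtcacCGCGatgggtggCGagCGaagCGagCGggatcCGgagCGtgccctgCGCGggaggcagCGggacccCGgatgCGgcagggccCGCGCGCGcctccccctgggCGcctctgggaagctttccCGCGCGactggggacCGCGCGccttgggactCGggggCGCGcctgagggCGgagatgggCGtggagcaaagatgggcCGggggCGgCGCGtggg
Ink4a: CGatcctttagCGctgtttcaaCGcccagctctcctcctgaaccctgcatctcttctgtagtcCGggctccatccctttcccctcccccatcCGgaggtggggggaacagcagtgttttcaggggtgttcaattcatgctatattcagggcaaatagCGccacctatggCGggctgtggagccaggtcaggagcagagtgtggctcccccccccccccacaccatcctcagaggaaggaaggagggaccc
Cdkn2b: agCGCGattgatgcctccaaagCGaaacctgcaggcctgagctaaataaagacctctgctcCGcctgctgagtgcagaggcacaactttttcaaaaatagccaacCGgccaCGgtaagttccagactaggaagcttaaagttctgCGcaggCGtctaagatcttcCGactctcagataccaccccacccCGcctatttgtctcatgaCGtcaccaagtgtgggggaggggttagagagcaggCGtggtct
Trp53: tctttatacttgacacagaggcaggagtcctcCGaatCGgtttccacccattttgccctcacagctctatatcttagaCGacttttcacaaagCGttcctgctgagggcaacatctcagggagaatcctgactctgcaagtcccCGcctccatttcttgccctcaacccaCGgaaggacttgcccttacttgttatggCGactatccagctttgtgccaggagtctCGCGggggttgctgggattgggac
The Arf window held 40 CpG, more than 98.7% of the 32817 promoters compared, whose median was 6. Cdkn2b held 12, Trp53 held 9, and Ink4a held 7. The letters GGGCGG, a GC box, searched on both strands, occurred 2 times in the Arf window and not in the other windows, and at least once in 32.7% of all promoters. CCAAT, searched on both strands, occurred in the Trp53 window alone and in 33.8% of all promoters. TATAAA, searched in the same way, was also in the Trp53 window and in 12.4% of all promoters. These matches are a description of the letters.

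None of the loci was devoid of reads. In every library, reads were counted over each transcript of each gene, and the smallest number was 49, for the Ink4a transcript in the H3K4me3 library NGS-6299 of FC/FC cells. Reads are those recovered from the deposited RPKM (reads per kilobase of transcript, scaled to the size of the library), which had been counted over each transcript with 500 bp added at both ends. The libraries held 26714377 to 49990775 reads over transcripts. Over the Arf transcript there were 706 to 982 reads of H3K4me1, 1221 to 2081 of H3K4me2, and 1337 to 2045 of H3K4me3. Cdkn2b, the shortest gene, had 276 to 414, 1539 to 2837, and 1886 to 2897 reads of the same marks. Trp53 had 386 to 549 reads of H3K4me1, 1966 to 3455 of H3K4me2, and 3351 to 6016 of H3K4me3. A count of 0 would have allowed up to 3 reads, and every count at these genes was above that floor in F/F and FC/FC cells alike. Such counts cover counting error only. Among the 23043 genes kept, 0 stayed at 3 reads or fewer in every library, so this floor alone does not set the members apart. In a bulk assay, fewer cells with a mark and less of the mark per cell cannot be told apart.

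A gene can be present and carry no H3K4 methylation, so the members were set beside the 4120 genes with no peak of any mark within 10 kb in any of the 18 libraries. That set was chosen for the absence of peaks, so a gene with peaks lies above it by construction, and the comparison only shows what unmarked chromatin yields. The median of these genes was 0.0833 to 0.114 RPKM for H3K4me1, 0.0333 to 0.0450 for H3K4me2, and 0.104 to 0.127 for H3K4me3 across libraries. Cdkn2b lay 14.0 to 21.9 times above that median in H3K4me1, 196 to 252 times in H3K4me2, and 87.3 to 108 times in H3K4me3. Trp53 lay 10.7 to 14.0 times above it in H3K4me1, 112 to 144 times in H3K4me2, and 76.5 to 88.2 times in H3K4me3. The Ink4a transcript came closest to the unmarked genes, with H3K4me3 of 1.74 to 3.64 times their median, at their 90.2 to 99.6 percentile. Its H3K4me1 was 10.5 to 17.4 times their median.

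**Figure D1:**
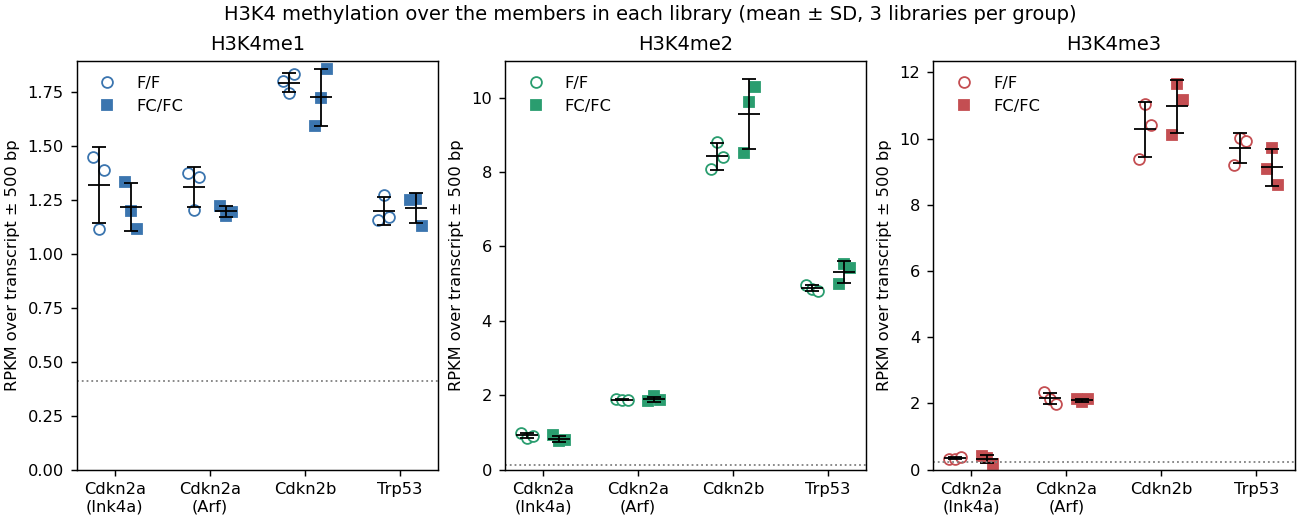
RPKM over each transcript (± 500 bp) in each library for H3K4me1, H3K4me2, and H3K4me3, with F/F libraries as open circles, FC/FC libraries as filled squares, and the mean ± SD of 3 libraries as bars. The dotted line is the highest 95th percentile over libraries of the genes without peaks. Only the H3K4me3 values of the Ink4a transcript lie near it (0.236 RPKM), and that of library NGS-6299 (0.181 RPKM) lies below it.

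The deposited values say in which order the genes stood per length. In H3K4me3, Cdkn2b (10.6 ± 0.819 RPKM, SD, n = 6) and Trp53 (9.42 ± 0.555) were highest and overlapped between libraries, followed by the Arf transcript (2.12 ± 0.120) and the Ink4a transcript (0.323 ± 0.0765), neither of which overlapped its neighbors. In H3K4me2, Cdkn2b (8.99 ± 0.887) stood above Trp53 (5.09 ± 0.305), the Arf transcript (1.88 ± 0.0468), and the Ink4a transcript (0.871 ± 0.0811), with no overlap at any step. In H3K4me1 the range was narrow, with Cdkn2b at 1.76 ± 0.0946 and the other 3 transcripts at 1.20 to 1.27, which overlapped each other. Because reads are divided by the length of the whole transcript, a promoter mark counts for less in a long transcript than in a short one, and these values are not heights of the promoter peaks. Among all 23043 genes, the H3K4me3 of Cdkn2b lay at the 94.0 to 95.7 percentile, that of Trp53 at the 93.0 to 94.7, that of Arf at the 72.6 to 75.2, and that of Ink4a at the 31.3 to 48.1.

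Cdkn2a and Cdkn2b carried separate blocks of H3K4me3, and Ink4a carried little. A peak of H3K4me3 covered the Arf start in all 6 libraries, with a width of 4.17 to 4.40 kb in F/F and 4.16 to 4.54 kb in FC/FC libraries, and its score was 3100 in each. Scores are the multiple of −log10 p that the peak caller MACS gives a region against a histone H3 library, and none lies below 50. Since 3100 was reached in every library at this peak, scores there cannot rank the libraries. The Cdkn2b start lay in a second peak of 4.13 to 4.41 kb in F/F and 3.90 to 4.53 kb in FC/FC libraries, again at 3100 throughout. At the Ink4a start, H3K4me3 peaks of 0.606 to 0.747 kb were called in 2 of 3 F/F libraries (scores 58.9 and 83.2) and in 1 of 3 FC/FC libraries (score 58.5), close to the minimum of 50. The other 3 libraries had no H3K4me3 peak over the Ink4a start, and the nearest one lay 4426 to 10505 bp upstream.

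H3K4me2 was ordered like H3K4me3, with peaks at a score of 3100 over the Arf and Cdkn2b starts in all 6 libraries, but it did not miss Ink4a. An H3K4me2 peak covered the Ink4a start in all 6 libraries, with scores of 646 to 1124 in F/F and 464 to 759 in FC/FC libraries. H3K4me1 also covered it in all 6 libraries, with scores of 229 to 521 and 108 to 412. The FC/FC and F/F scores overlapped in both marks, and scores depend on the depth of a library. H3K4me1 alone was arranged the other way, present at Ink4a and absent from the Arf start in all 6 libraries. The nearest ones lay 1452 to 2336 bp upstream and 1082 to 3882 bp downstream from it. H3K4me1 was absent from the Cdkn2b start as well, with peaks 79 to 518 bp upstream and 1698 to 1809 bp downstream.

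Of all promoters compared, 39.1% had an H3K4me3 peak in all 6 libraries within the 250 bases, 45.6% an H3K4me2 peak, and 15.0% an H3K4me1 peak. Among the 3292 promoters within 1 CpG of the count at Ink4a, these shares were 33.6%, 42.6%, and 18.9%. Among the 230 promoters as rich in CpG as Arf, H3K4me3 was present in 83.9%. At the CpG counts of Cdkn2b and Trp53, H3K4me3 was present in 72.0% of 2036 and in 50.5% of 2439 promoters. The promoter of Ink4a was thus among those with H3K4me2 and H3K4me1 in all 6 libraries but without a steady H3K4me3 peak, and the other 3 were among those with both H3K4me2 and H3K4me3.

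Further peaks lay between the promoters. An intergenic region between Cdkn2b and the Arf start, chr4:89301447-89304224 for H3K4me1 and chr4:89301430-89303816 for H3K4me2, had peaks of both marks in all 12 libraries and no H3K4me3 peak in any. Its H3K4me1 scores were 259 to 762 and its H3K4me2 scores 180 to 1147, the lowest being that of the H3K4me2 library NGS-6282. In the first intron of the Arf transcript, chr4:89286344-89287467 had an H3K4me2 peak in all 6 libraries with scores of 140 to 386. There, H3K4me1 was called in 2 F/F libraries (scores 107 and 101) and H3K4me3 in 2 F/F libraries (51.5 and 64.4), and neither in any FC/FC library. These scores are near the minimum. In the same intron, H3K4me1 at chr4:89288715-89291741 was called in 3 F/F libraries (scores 119 to 160) and 2 FC/FC libraries (69.5 and 56.9). At chr4:89275630-89276323 it was called in 1 F/F library (87.5) and 0 FC/FC libraries. Other H3K4me1 peaks went the other way. At chr4:89296071-89298242, upstream from the Arf start, scores were 103 to 129 in F/F and 132 to 214 in FC/FC libraries. Within the intron, chr4:89292018-89293537 was called in 1 F/F and 2 FC/FC libraries. Over exon 2, which Ink4a and Arf share, an H3K4me1 peak was called in 2 F/F libraries and 1 FC/FC library, with scores of 90.9 to 130. Exon 3, which they also share, held no peak of any mark. Reads counted over whole transcripts cannot show whether that exon is present.

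**Figure D2:**
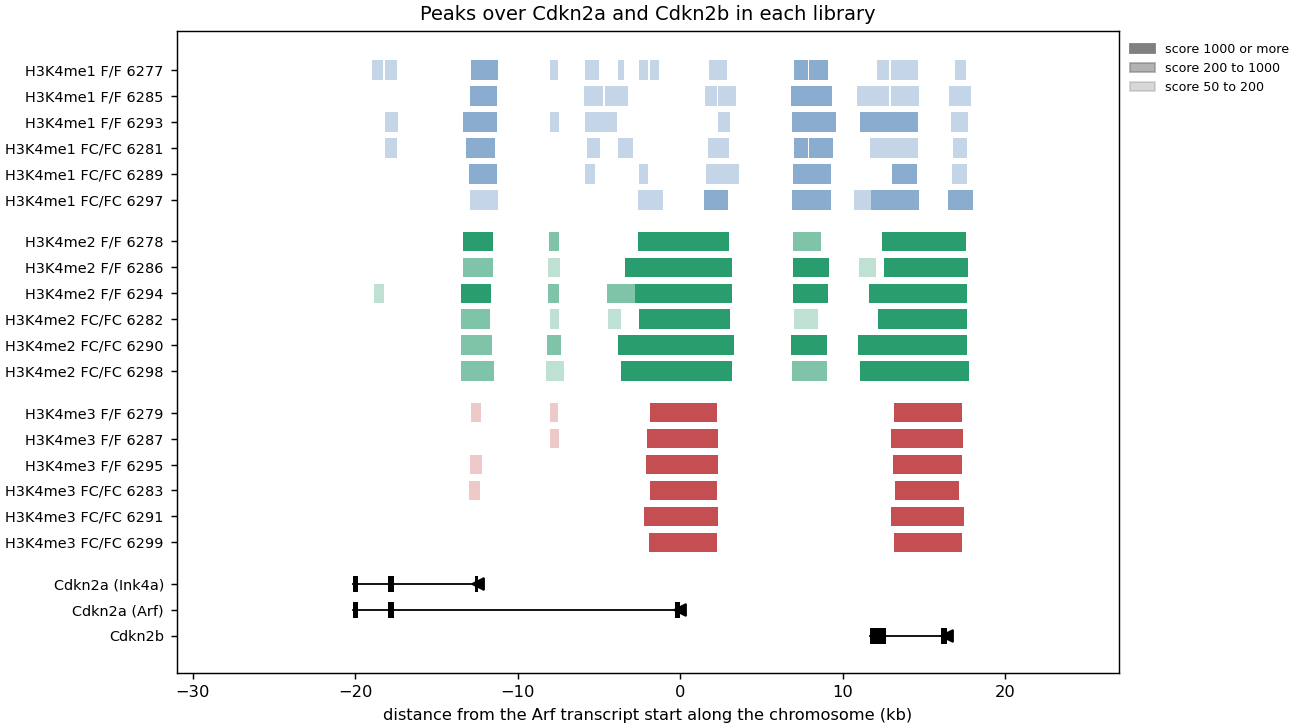
Peaks of each of the 18 libraries (rows, with library numbers) from 10 kb below Cdkn2a to 10 kb above Cdkn2b, against the distance in kb from the Arf start along the chromosome, shaded by score. Transcripts are drawn below with exons as boxes and arrowheads at the starts. H3K4me3 blocks lie over the Arf and Cdkn2b starts in all 6 libraries, and peaks over the Ink4a start are mainly H3K4me1 and H3K4me2.

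Around Trp53, H3K4me3 formed the widest block of the 3 genes. A peak of 5.35 to 6.004 kb in F/F and 5.53 to 6.47 kb in FC/FC libraries covered the start in all 6 libraries at a score of 3100, and was wider than 97.3% to 98.2% of the H3K4me3 peaks of the same library. It covered exon 1 of Trp53 and also the start of Wrap53, a gene for a telomerase-associated protein that runs the other way from 1035 bp upstream. ChIP-seq does not resolve which of these promoters the nucleosomes belong to. H3K4me2 covered the same stretch, 6.86 to 7.63 kb in F/F and 6.43 to 7.98 kb in FC/FC libraries. H3K4me1 left it free in all 6 libraries, with peaks ending 1525 to 1770 bp upstream from the start and beginning 1572 to 1784 bp downstream from it. Exons 2 to 11 of Trp53 held no peak of any mark. Reads were counted over the transcript as a whole, with the peaks near its start, so they cannot show whether these exons are present.

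Near the downstream edge of the window, chr11:69599163-69601325 had H3K4me1 in all 6 libraries with scores of 193 to 626, and H3K4me2 in all 6 with scores of 65.9 to 322. This region lies at Atp1b2, a subunit of the sodium pump. A small H3K4me3 peak within Wrap53, chr11:69573475-69574344, was called in all 6 libraries with scores of 67.0 to 140.

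**Figure D3:**
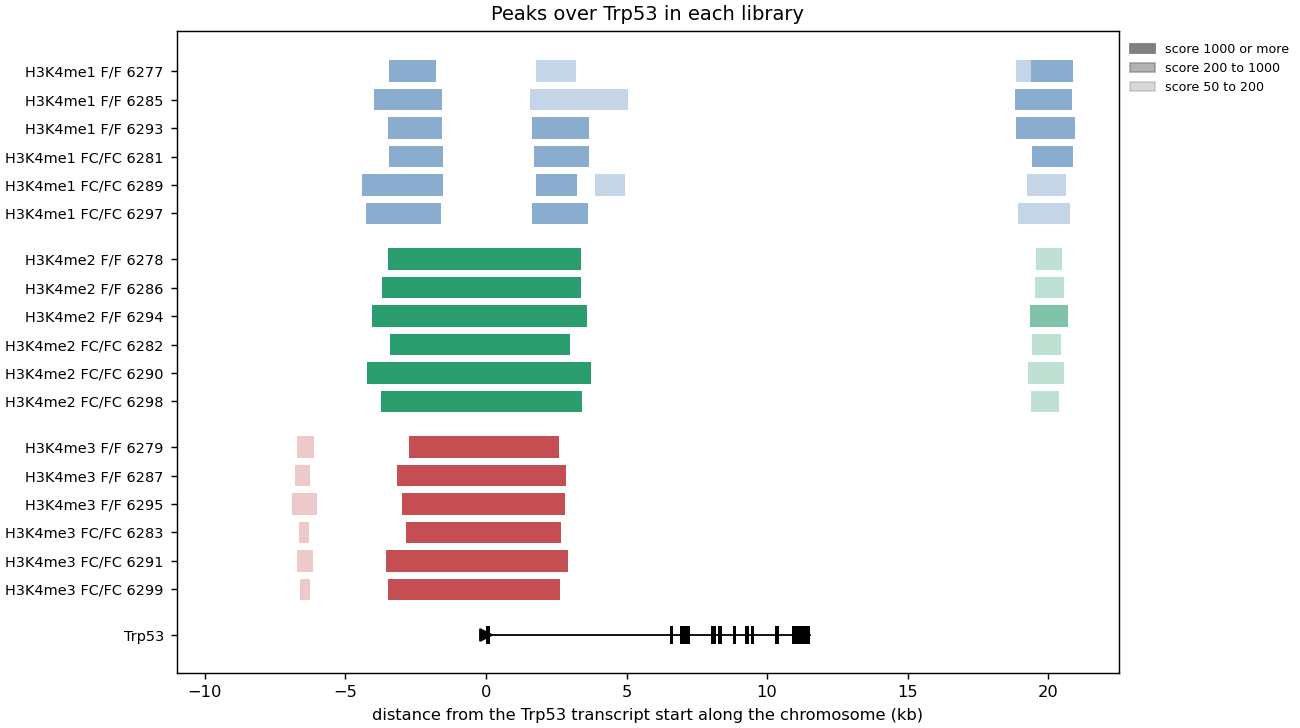
Peaks of each of the 18 libraries within 10 kb of Trp53, against the distance in kb from the Trp53 start along the chromosome, shaded by score, with exons as boxes below. H3K4me2 and H3K4me3 span the start in all 6 libraries of each mark, and H3K4me1 peaks flank it.

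The loci were then read against their neighbors, since a deletion would leave a gap in reads. Nearest to Cdkn2a on the lower side was Mtap, 93.4 kb away, which encodes an enzyme of methionine salvage and is often deleted together with CDKN2A in human tumors. Mtap had an H3K4me3 peak in all 6 libraries and mean RPKM of 1.19 in H3K4me1, 1.32 in H3K4me2, and 1.51 in H3K4me3. The nearest gene above Cdkn2b was Dmrta1, 377 kb away, with H3K4me2 peaks in 6 libraries, no H3K4me3 peak, and a mean H3K4me3 of 0.168 RPKM. Of the 37 other genes within 1 Mb of Cdkn2a, 16 had an H3K4me3 peak in all 6 libraries and 18 had no peak of any mark. Of these 18 genes, 16 were interferon genes, part of a cluster of short, nearly identical genes in which reads may be split between copies. Their H3K4me3 ran from 0.0948 to 0.253 RPKM for all 18 genes. Of the 37 genes, 15 had 3 reads or fewer in at least 1 library, and no library fell to that level at Cdkn2a or Cdkn2b. Reads are not scaled by length, and most of these 15 were interferon genes far shorter than Cdkn2a or Cdkn2b. The counts therefore do not compare their marking. The mean H3K4me3 of Cdkn2b was above that of 97.4% of the 38 genes within 1 Mb of it, and that of Cdkn2a above 63.2%, or above 47.6% of the 21 genes within 500 kb. Most of the 16 genes with an H3K4me3 peak in all 6 libraries lay together, from Gm13286 to Gm13288. Most genes above Cdkn2a within 500 kb belonged to that same block, so they are not separate neighbors.

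On chromosome 11, 69 of the 99 genes within 1 Mb of Trp53 had an H3K4me3 peak in all 6 libraries and 9 had no peak of any mark. Trp53 stood above 75.8% of them in mean H3K4me3, above 60.6% in H3K4me2, and above 42.4% in H3K4me1. Wrap53 had mean RPKM of 3.34 in H3K4me3, and Atp1b2, 7.88 kb on the other side, had 1.21. A deletion of a single allele, a deletion of an exon without peaks, and a point mutation, the usual lesion of Trp53, would not be seen in values of this kind.

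**Figure D4:**
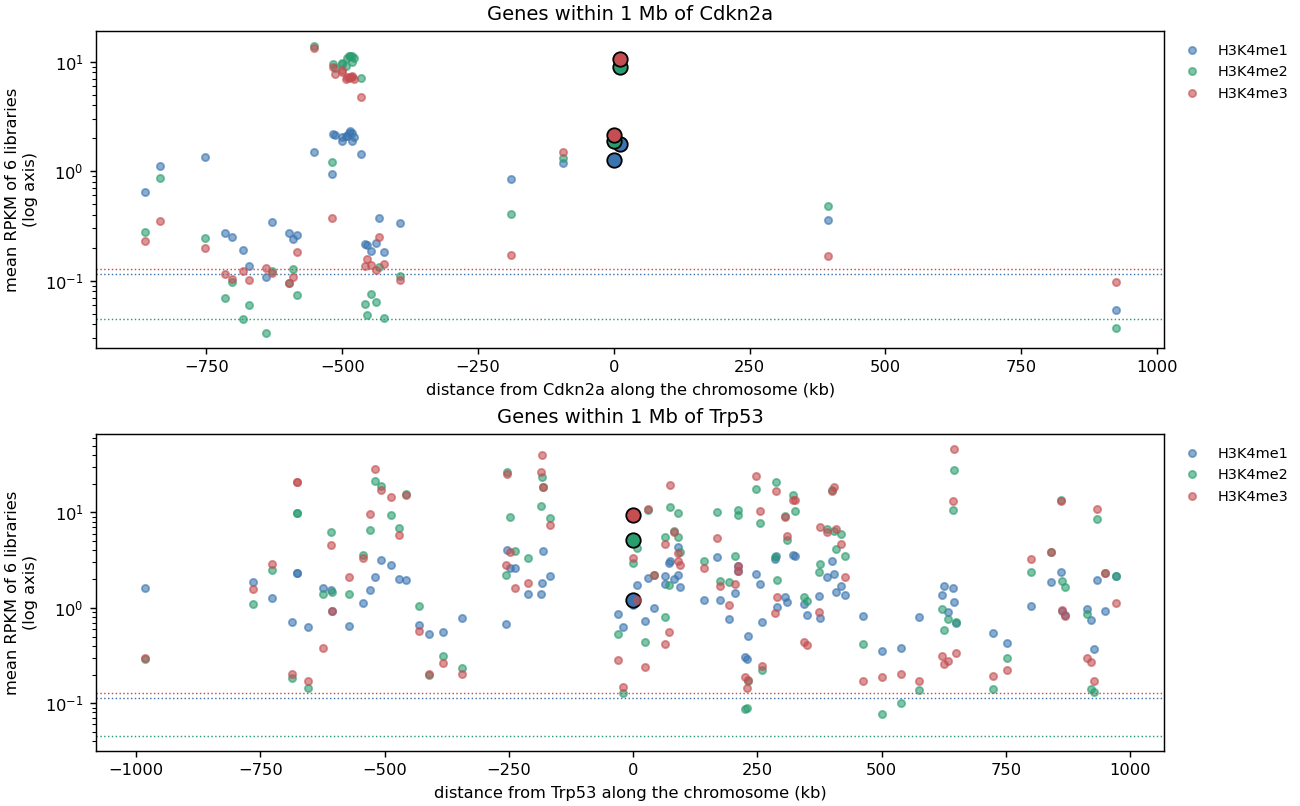
Mean RPKM over 6 libraries (log axis) of every gene within 1 Mb of Cdkn2a (top) and of Trp53 (bottom), against distance along the chromosome in kb, with members as large outlined points. Dotted lines are the highest library median of genes without peaks for each mark, and the members lie above them in all 3 marks.

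FC/FC cells were compared with F/F cells for each mark with limma on log2(RPKM + 0.1), for genes that exceeded 1 RPKM in 3 or more of the 6 libraries, and Benjamini-Hochberg adjustment was made over every gene in the fit. All 3 genes passed the filter in all marks with their longest transcript, and none passed the test in any mark. For H3K4me1, 0 of 8565 genes were called by limma (0%), with 2142 at an unadjusted p under 0.05 and 723 called by limma-voom on the recovered reads. With the runs of library numbers as a replicate block, 1798 were called in this mark (21.0%), 692 up and 1106 down, and still none of the 3 genes. For H3K4me2, 212 of 9986 were called (2.12%). For H3K4me3, 0 of 9072 were called (0%), with 338 at an unadjusted p under 0.05 and 0 by limma-voom.

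Trp53 had H3K4me2 of 4.95, 4.87, and 4.79 RPKM in the F/F libraries and 4.98, 5.52, and 5.42 in the FC/FC libraries. The groups did not overlap, but the lowest FC/FC library, NGS-6282, lay next to the highest F/F library. The log2 fold change was 0.12 (SE 0.0512, 95% interval 0.00036 to 0.24, limma adjusted p = 0.171). Groups did not overlap in 35.7% of the genes tested in H3K4me2, against 30.5% in H3K4me1 and 7.29% in H3K4me3, and of the 9 combinations of gene and mark only this 1 was without overlap. Cdkn2b had H3K4me2 of 8.08, 8.80, and 8.40 in F/F and 8.502, 9.88, and 10.3 in FC/FC libraries, with library NGS-6282 again the lowest of FC/FC and within the F/F range. Its log2 fold change was 0.18 (SE 0.0767, 95% interval −0.0043 to 0.36, adjusted p = 0.179). The Arf transcript had H3K4me2 of 1.90, 1.87, and 1.87 in F/F and 1.83, 1.97, and 1.86 in FC/FC libraries, a log2 fold change of 0.0060 (SE 0.0439, 95% interval −0.097 to 0.11, adjusted p = 0.934) that became −0.036 after quantile normalization.

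The H3K4me2 calls turned on library NGS-6282, an FC/FC library labelled H3K4me2 but with the catalogue number listed for the H3K4me1 antibody. Without it, Cdkn2b rose by a log2 fold change of 0.26 (SE 0.0505, limma adjusted p = 0.0136) and Trp53 by 0.16 (SE 0.0426, adjusted p = 0.0257). The Arf transcript remained uncalled at 0.026 (adjusted p = 0.686). The same omission raised the calls over all genes to 2963 of 9886 (30%), of which 2117 were up and 846 down, so that a call was common. When any other H3K4me2 library was left out, 0 to 18 genes were called and neither gene was among them. The part of the antibody named in the label in these values was not tested.

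**Figure D5:**
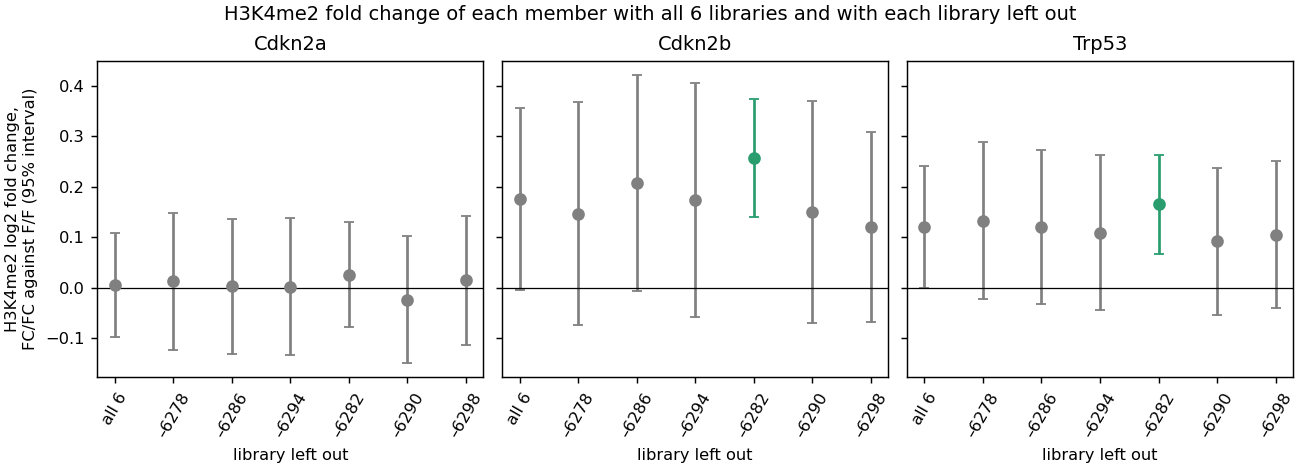
H3K4me2 log2 fold change of FC/FC against F/F cells for Cdkn2a (Arf transcript), Cdkn2b, and Trp53, with 95% intervals, from all 6 libraries and with each library left out in turn (library numbers under the axis). Green points are those with an adjusted p under 0.05, which occurs only for Cdkn2b (0.26) and Trp53 (0.16) when library NGS-6282 is left out.

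In H3K4me3, none of the 3 genes passed the test. Trp53 had 9.20, 10.03, and 9.92 RPKM in F/F and 9.07, 9.72, and 8.61 in FC/FC libraries, a log2 fold change of −0.089 (95% interval −0.24 to 0.063). Cdkn2b had 9.40, 11.0, and 10.4 in F/F and 10.1, 11.6, and 11.2 in FC/FC libraries, a log2 fold change of 0.093 (95% interval −0.092 to 0.28). The Arf transcript had 2.34, 2.13, and 1.995 in F/F and 2.12, 2.03, and 2.12 in FC/FC libraries, a log2 fold change of −0.040 (95% interval −0.19 to 0.11). The limma adjusted p was 0.990 for all 3, and the groups overlapped in each. The intervals leave room for changes of up to about those sizes in either direction.

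H3K4me1 over the Arf transcript was 1.37, 1.20, and 1.35 RPKM in F/F and 1.22, 1.17, and 1.19 in FC/FC libraries. The log2 fold change was −0.12 (SE 0.0619, 95% interval −0.26 to 0.021, limma adjusted p = 0.262, or 0.0941 with the replicate block). Cdkn2b was at −0.055 (adjusted p = 0.605) and Trp53 at 0.014 (adjusted p = 0.911), which became −0.021 when libraries were centred on their medians, and the groups overlapped in both genes. The Ink4a transcript passed the filter in H3K4me1 alone, with 1.45, 1.12, and 1.39 in F/F and 1.33, 1.20, and 1.11 in FC/FC libraries, and had a log2 fold change of −0.10 (adjusted p = 0.537) where the shortest transcript was kept. Its H3K4me3 was 0.320, 0.320, and 0.369 in F/F and 0.403, 0.345, and 0.181 in FC/FC libraries, which spread more than they differed.

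The reads of the Arf transcript that lie outside the Ink4a transcript were obtained by subtraction, a step added after the data had been seen. This left chr4:89282693-89295119, which holds exon 1 of Arf, its promoter, and most of its first intron. F/F libraries averaged 3.43 ± 0.309 RPKM of H3K4me3 there, and FC/FC libraries 3.34 ± 0.136 (SD, n = 3). H3K4me1 in the same interval was 1.32, 1.26, and 1.33 in F/F and 1.14, 1.15, and 1.252 in FC/FC libraries, without overlap. The exact two-sided permutation p of 0.1 is the smallest that 3 libraries against 3 allow, and the groups also failed to overlap in 30.5% of all genes tested in this mark.

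The length covered by peaks was compared as well. Within 10 kb of Cdkn2a, H3K4me1 peaks covered 8.57 to 9.07 kb in F/F and 7.19 to 7.99 kb in FC/FC libraries, and H3K4me3 peaks covered 4.91 to 5.25 kb and 4.22 to 4.86 kb. Neither pair of groups overlapped, and the exact permutation p was 0.1 for both (0.9 after adjustment over 18 tests). With peaks of a score of at least 100 alone, both pairs overlapped, and the mean H3K4me3 difference shrank from −563 to −1.0 bp (exact permutation p = 1). The H3K4me1 groups also overlapped in a window of 20 kb (exact permutation p = 0.3), but the H3K4me3 groups did not (exact permutation p = 0.1). In a window of 5 kb, neither pair overlapped (exact permutation p = 0.1 for both). The H3K4me3 difference lay in the small peaks at Ink4a and in the first intron of Arf, since the block over the Arf start spanned 4.31 ± 0.124 kb in F/F libraries and 4.31 ± 0.203 kb in FC/FC libraries (SD, n = 3). Lengths failed to overlap in 14.3% of genes with H3K4me1 peaks, 13.3% with H3K4me2 peaks, and 5.61% with H3K4me3 peaks. The windows of Cdkn2a and Cdkn2b share the intergenic peaks. At Cdkn2b and Trp53 the groups overlapped in all 3 marks, with exact permutation p from 0.5 to 1.

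The partners of these genes were taken as a list of 51, of regulators and targets of the Arf-p53 and Ink4-Rb pathways, regulators of the Cdkn2a locus such as Polycomb proteins, and telomerase. Of them 27 were tested in H3K4me1, 40 in H3K4me2, and 41 in H3K4me3, and 0 passed in either direction in any mark by limma. At an unadjusted limma p under 0.05 there were 5, 7, and 1, beside 2142 of 8565, 2902 of 9986, and 338 of 9072 over all genes tested. Other settings called up to 5 genes in H3K4me1 and, with all libraries, up to 5 in H3K4me2. The replicate block called 5 of 27 in H3K4me1, beside 21.0% of all genes, namely Mdm2 and Npm1 up and E2f2, Ccnd1, and Smad3 down, of which Npm1 and Ccnd1 are named after their values were seen. In H3K4me1, H3K4me2, and H3K4me3, the median log2 fold change of the listed genes tested was 0.015, 0.061, and 0.0078, beside −0.0028, 0.075, and 0.014 over all genes tested. Without library NGS-6282, 8 rose and 2 fell of 39 tested in H3K4me2, beside the 30% of all genes. Mdm2, the ubiquitin ligase that Arf inhibits and p53 induces, averaged 4.12 ± 0.372 RPKM of H3K4me2 in F/F libraries and 5.40 ± 0.664 in FC/FC libraries (log2 fold change 0.38, limma adjusted p = 0.0865), and without that library rose by 0.48 (adjusted p = 0.00843). Its H3K4me1 was 1.94 ± 0.160 and 2.36 ± 0.155 (adjusted p = 0.0908), the lowest p among those higher in that mark.

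Cdkn2c, which encodes p18-Ink4c, a further inhibitor of the cyclin D kinases, had H3K4me2 of 8.25 ± 0.261 RPKM in F/F and 10.03 ± 0.665 in FC/FC libraries (log2 fold change 0.28, adjusted p = 0.0632), and 0.32 without library NGS-6282 (adjusted p = 0.00963). The lowest p among genes lower in H3K4me2 was that of Smad3, a mediator of TGF-β signals, at 2.03 ± 0.00244 and 1.70 ± 0.0961 (adjusted p = 0.0617). For H3K4me1 it was that of E2f2, a transcription factor of the Rb pathway, at 1.26 ± 0.0900 and 1.01 ± 0.0350 (adjusted p = 0.0704). Cdkn1a, which encodes p21 and is a classic target of p53, had H3K4me3 of 14.0 ± 0.405 and 15.5 ± 0.652 RPKM and the lowest p of the list in that mark (log2 fold change 0.15, adjusted p = 0.990), and Ccne2, a cyclin E gene, had the lowest of those lower (−0.088, adjusted p = 0.990). Cdk4, the target kinase, carried H3K4me3 of 37.0 ± 2.28 and 36.4 ± 1.51, Cdkn2d, which encodes p19-Ink4d, 12.5 ± 1.11 and 12.5 ± 0.566, and Rb1 1.21 ± 0.103 and 1.14 ± 0.0932. Cdk6 did not pass the filter.

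Genes with a profile most like each member over the 18 libraries, by Euclidean distance of log2(RPKM + 0.1), were Fam160b1, Agpat6, and Abcb10 for Cdkn2a (distances 0.320 to 0.416), Sdpr, Trmt2a, and Tapbp for Cdkn2b (0.476 to 0.539), and Psmc5, Cdca5, and Tmed9 for Trp53 (0.356 to 0.412). Their likeness is one of level across marks.

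Facts of the whole series bear on these values in few places. Of 12 fibroblast markers, 10 had H3K4me3 above 1 RPKM in all 6 libraries, and of 6 epithelial, 6 haematopoietic, and 4 endothelial markers none did. Of 5 neural markers 1 did. In H3K4me1, 9 fibroblast, 1 epithelial, 3 haematopoietic, 2 endothelial, and 2 neural markers exceeded 1 RPKM in all 6 libraries. Summed H3K4me1 did not overlap for epithelial (5.70 to 5.98 RPKM in F/F, 4.55 to 4.95 in FC/FC), endothelial (3.52 to 3.84, 3.20 to 3.51), and fibroblast markers (24.7 to 25.6, 23.6 to 24.5), and summed H3K4me2 did not for neural markers (11.9 to 12.7, 13.6 to 15.7). Among single genes tested, the groups failed to overlap in 30.5% in H3K4me1 and in 35.7% in H3K4me2. The part of these markers in the H3K4me1 and H3K4me2 differences was not tested. Kmt2d had H3K4me2 of 2.46 to 2.55 RPKM in F/F and 2.69 to 2.89 in FC/FC libraries, but the marks were counted over the whole gene, so that this checks nothing about the excised exons.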

How the data were processed

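ChIP-seq of H3K4me1, H3K4me2, and H3K4me3 was analysed in 18 libraries, and the other 34 of 52 samples were not used here. The authors aligned reads to mm10 with BWA 0.7.10 (bases called with CASAVA 1.4) and deposited one RPKM table per library, counted over RefSeq transcripts with 500 bp added at either end. The deposited peak lists came from MACS 1.4.2 with histone H3 as control, and their score is a multiple of −log10 p, at least 50. RPKM multiplied by extended length gave whole multiples of a step for 100% of values at a tolerance of 0.01 read. The totals were 26714377 to 49990775 reads.

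Transcripts under 250 bp were dropped and 1 was kept per gene, that of the study's gene table or the longest. Genes above 1 RPKM in 3 of 6 libraries entered limma 3.58.1 as log2(RPKM + 0.1) (R 4.3.3, mean-variance trend), at a Benjamini-Hochberg adjusted p under 0.05. For peak lengths and scores, two-sided exact permutation tests were used (smallest p 0.1). The test was also run on simulated data with 200 changed genes per mark. The simulated libraries were independent and had no runs of library numbers, so they do not cover effects of a run or of a single library. Alternatives were other pseudocounts, scalings, filters, transcripts, windows, reference genes, limma-voom, a joint fit, and leaving out each library. The pathway list without single libraries and the Arf-only interval were chosen after seeing the data. Genes named were the members, Kmt2d, the nearest neighbors, the 3 genes of most similar profile, and from the pathway list 7 set genes and the lowest p per direction and mark. Library numbers fall into 3 runs, each with 1 F/F and 1 FC/FC library of a mark, which no label calls a batch. Deviations from the group means correlated within every run in H3K4me1 (0.28 to 0.54), but in the third run were at −0.49 in H3K4me2 and −0.22 in H3K4me3, so the runs were taken as pairs in H3K4me1 only. A fit with the run as a replicate block was chosen after seeing the data. Members and lists were chosen with earlier results of these data known. Other steps used Python 3.11.15, numpy 2.4.6, pandas 2.3.3, scipy 1.17.1, and matplotlib 3.10.9.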

Additional observations from a re-analysis of the deposited data

How the results depend on the processing

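With the run of library numbers as a replicate block, calls went from 0 to 1798 in H3K4me1, from 212 to 197 in H3K4me2, and from 0 to 48 in H3K4me3, and no call of the 3 genes changed. In H3K4me1, every library correlated best with that of its own run, and in the other marks not every one did. No fold change of Cdkn2a, Cdkn2b, or Trp53 passed the limma test under any alternative except in H3K4me2 without library NGS-6282 (Cdkn2b 0.26, Trp53 0.16). Signs turned for Cdkn2a H3K4me2 after quantile normalization (−0.036) and for Trp53 H3K4me1 after median centring (−0.021). Leaving out single libraries gave log2 fold changes of −0.023 to 0.026 for Cdkn2a, 0.12 to 0.26 for Cdkn2b, and 0.092 to 0.16 for Trp53 in H3K4me2, −0.091 to 0.018 for Cdkn2a in H3K4me3, and −0.010 to 0.060 for Trp53 in H3K4me1. Over all genes, H3K4me1 calls went from 0 to 547 (median centring), 75 (quantile), 723 (limma-voom), and 276 (joint fit of 18 libraries). H3K4me2 calls went from 212 to 451 (no filter), 1069 (median centring), 364 (quantile), 360 (limma-voom), and 435 (joint fit), and H3K4me3 calls from 0 to 30 (joint fit). The H3K4me2 calls were 58 up and 154 down, but 822 up and 247 down after median centring. Leaving out single libraries gave 0 to 2963 calls in H3K4me2, 0 to 2 in H3K4me3, and 0 to 10 pathway genes in H3K4me2. Pathway calls in H3K4me1 went from 0 to 3 (median centring), 4 (limma-voom), 2 (joint fit), and 5 (replicate block), and in H3K4me2 to 5 (median centring), 1 (quantile), 2 (limma-voom), 3 (joint fit), and 1 (replicate block).

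Differences in peak length (FC/FC minus F/F, in bp) turned sign for Cdkn2b H3K4me1 in windows of 5 kb (−293) and 20 kb (−1065), for Trp53 H3K4me1 in the same windows (353 and 118), and at a score of at least 100 for Trp53 H3K4me2 (−15.7) and H3K4me3 (−40.3). The highest H3K4me1 score at Trp53 turned to 73.1 in the 5 kb window. With single libraries left out, lengths differed by −735 to 926 for Cdkn2a H3K4me2, −756 to 702, −41.8 to 1206, and −217 to 110 for Cdkn2b H3K4me1, H3K4me2, and H3K4me3, and −768 to 658, −486 to 437, and −201 to 365 for Trp53. Highest H3K4me1 scores then differed by −104 to 47.3 (Cdkn2a), −155 to 83.5 (Cdkn2b), and −125 to 52.8 (Trp53). None of these lengths or scores passed a test, and the causes were not tested.

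Against all genes instead of genes without peaks, mean percentiles in H3K4me1, H3K4me2, and H3K4me3 were 73.4, 54.3, and 43.7 for Ink4a, 73.2, 71.7, and 73.6 for Arf, 85.4, 94.996, and 94.9 for Cdkn2b, and 71.7, 89.2, and 94.0 for Trp53. Against genes without a peak within 50 kb, percentiles that moved by more than their SD were 99.97 (Ink4a, Arf, Cdkn2b, and Trp53 in H3K4me1), 99.96 (Ink4a H3K4me2), and 99.98 (Arf H3K4me3). Among neighbors within 500 kb, Cdkn2b lay above 100% in all 3 marks, Cdkn2a above 47.6% in all 3, and Trp53 above 35.5% in H3K4me1, 53.2% in H3K4me2, and 75.8% in H3K4me3. Most of the genes above Cdkn2a belonged to the block that ends at Gm13288. With the longest transcripts alone, the lowest read count was 276. Depth limits the Ink4a transcript most, since its H3K4me3 rested on 49 to 156 reads.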
